A study of Homo sapiens with 6 samples.

Results

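Collagens, laminins and the enzymes that modify and crosslink them were followed in A549, a long-cultured line from a human lung carcinoma, after 48 h without glucose. The 72 genes were the rows of the deposited table whose official symbol names a collagen chain, a laminin chain, a prolyl 4-hydroxylase (P4HA), a lysyl hydroxylase (PLOD) or a lysyl oxidase (LOX and LOXL), together with FN1, SPARC, NID1, HSPG2 and SERPINH1, out of 19240 genes in all. They comprise 44 collagen chains, 12 laminin chains, 11 enzymes and 5 further genes. Cells held for 48 h in medium without glucose (3 libraries) were compared with cells held for the same 48 h with 25 mM glucose (3 libraries); all libraries come from the 1 cell line, with no genetic change named in the labels, and the title of the series names the mitochondrial enzyme PCK2 and growth independent of glucose. Transcripts were counted from their 3' ends.

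Collagens are built from 3 chains wound into a triple helix. The helix forms in the endoplasmic reticulum once prolyl 4-hydroxylases have modified its prolines, lysyl hydroxylases modify lysines that later carry crosslinks, and the chaperone HSP47, encoded by SERPINH1, holds the folded trimer until export. Outside the cell, lysyl oxidases convert lysines so that neighbouring molecules crosslink. Laminins, trimers of an alpha, a beta and a gamma chain, form with collagen IV, nidogen (NID1) and perlecan (HSPG2) the basement membrane on which lung epithelium rests.

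Libraries held 11086416 to 14060313 gene counts without glucose and 6701004 to 14259943 with glucose. Whether the 3 libraries of a condition come from separate cultures is not stated; the p-values here measure the spread among libraries, which may be technical. A second principal component (17.8% of the variance) was highest in replicate 2 among the libraries without glucose and in replicate 1 among those with glucose. Among the matrix genes tested, 10 of 38 were highest in both of these libraries within their groups and 7 of 38 were lowest in both, against 18.9% and 17.6% of all genes tested; whether a shared technical difference lies behind this was not tested. All 5 epithelial markers had counts in every library, and their sum ran from 1511 to 1820 CPM without glucose and from 3117 to 3894 CPM with glucose. KRT8 and KRT18 made up most of it and fell (920.6 ± 148 and 736 ± 16.4 CPM without glucose, 2091 ± 234 and 1370 ± 149.6 CPM with glucose, SD, n = 3 each; edgeR adjusted p = 0.00150 and 0.00473), while KRT19, CDH1 and EPCAM did not pass. KRT19 had 24.6 ± 2.93 CPM without glucose and 34.8 ± 8.17 CPM with glucose, groups that did not overlap. CDH1 had 7.88 ± 0.329 CPM without glucose and 5.93 ± 1.18 CPM with glucose, groups that did not overlap, and EPCAM had 3.09 ± 0.838 CPM without glucose and 4.10 ± 1.54 CPM with glucose. The 7 markers of alveolar type II cells summed to 20.4 to 24.8 CPM without glucose and 15.3 to 15.97 CPM with glucose, most of it ABCA3; SFTPB had counts in all 6 libraries, and SFTPA1, SFTPA2 and SFTPC had none. Of the 8 fibroblast markers, DCN and POSTN were at 0 in all libraries, and the summed level of the 8 ran from 2.91 to 5.69 CPM without glucose and from 10.7 to 20.3 CPM with glucose, most of it THY1. The leukocyte markers summed to at most 0.147 CPM without glucose and 1.70 CPM with glucose, and the endothelial markers to at most 0.306 CPM without glucose and 0.848 CPM with glucose.

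More matrix genes were higher than lower without glucose. Levels are given as CPM, the count scaled by 1e6 over the TMM-scaled library size, which for 3' end counts are not divided by transcript length, so levels of different genes are not compared. A filter on low counts kept 38 of the 72 genes for the test. Of these, 13 rose and 2 fell (edgeR quasi-likelihood test, Benjamini-Hochberg adjusted p under 0.05), against 11.6% higher and 10.7% lower among all 11886 genes tested, 22.3% in either direction. Among the genes that rose were COL4A3, COL5A1, COL6A2, COL7A1, COL12A1, COL16A1, LAMA5, LAMB2, P4HA2, P4HA3, PLOD2 and LOXL2, and those that fell were COL1A1 and COL21A1. The median log2 fold change over the 38 was 0.58, beside 0.02 over all genes tested; it was 0.37 when replicate 1 of the glucose-free cells was left out, 0.48 when their replicate 2 was, and 0.30 over the 63 matrix genes tested with no filter on low counts. A gene can pass the filter through 1 group alone; with a filter on the mean over all 6 libraries (at least 20 counts) 36 matrix genes were tested and the counts were again 13 and 2. The groups did not overlap in CPM for 19 of the 38 genes, beside 40.4% of all genes tested. In bulk RNA, fewer cells that make a transcript and less of it per cell cannot be told apart.

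Summed over each class, the enzymes and the collagens were higher in every library without glucose than in any with glucose, and the laminins overlapped. The enzymes summed to 778, 572 and 731 CPM without glucose and to 336, 419 and 348 CPM with glucose. The collagens summed to 639, 645 and 564 CPM without glucose and to 484, 404 and 517 CPM with glucose. The laminins summed to 1156, 642 and 988 CPM without glucose and to 362, 644 and 624 CPM with glucose. Within them the beta chains, most of whose sum was LAMB1, overlapped (716, 302 and 578 CPM without glucose, 172, 431 and 400 CPM with glucose). The sums of the alpha chains and of the gamma chains did not overlap and were higher without glucose. The 5 further genes summed to 260.4, 433 and 357 CPM without glucose and to 373, 278 and 252 CPM with glucose, which overlapped throughout. Of all counts assigned to genes, the 72 made up 0.234% to 0.270% in libraries without glucose and 0.164% to 0.176% in those with glucose.

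**Figure D1:**
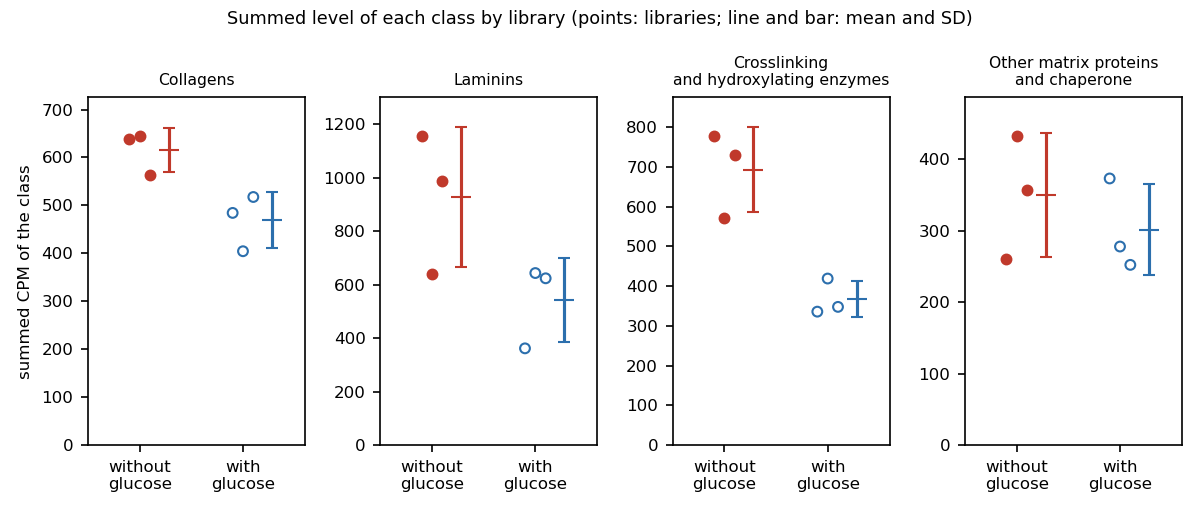
Summed CPM of the collagens, laminins, enzymes, and other matrix proteins with the chaperone, in each library without glucose (filled points) and with glucose (open points); the line and bar beside the points are the mean and SD of 3 libraries. The enzyme sums lie between 572 and 778 CPM without glucose, above the highest library with glucose at 419 CPM, whereas the laminin sums overlap. Within the laminins the sums of the beta chains overlap, and those of the alpha and gamma chains do not (not drawn).

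**Figure D2:**
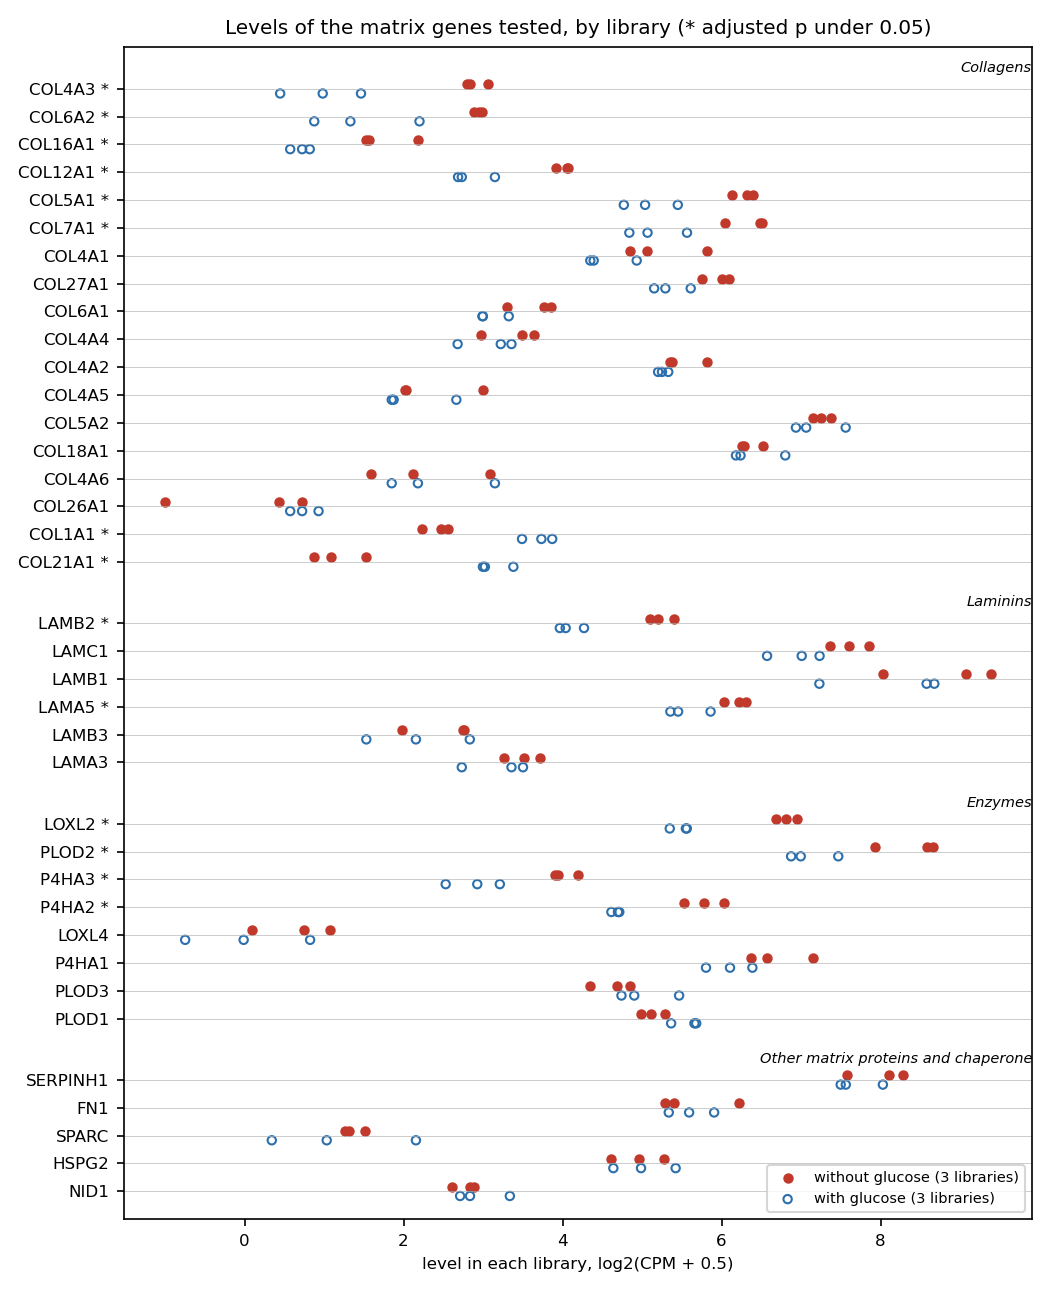
Level of 37 of the matrix genes tested in every library, as log2(CPM + 0.5), ordered by fold change within its class; filled points are the 3 libraries without glucose, open points the 3 with glucose, and asterisks mark an adjusted p under 0.05. The groups are apart for 18 of the 37 genes, beside 40.4% of all genes tested. LAMB1 overlaps, with a highest library 2.57 times the lowest without glucose and 2.73 times with glucose.

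**Figure D3:**
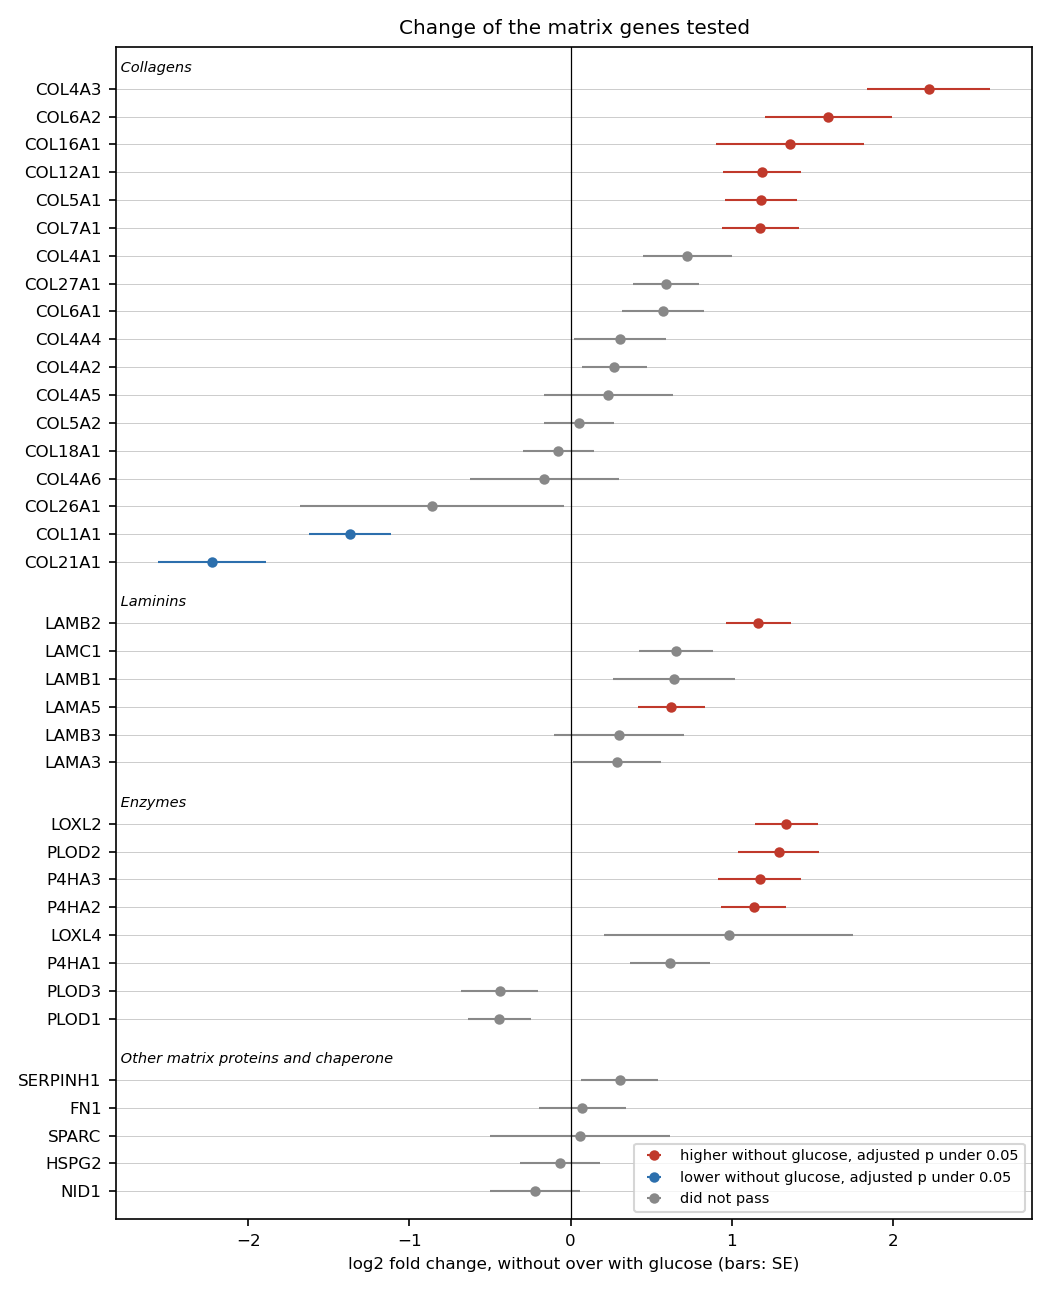
Log2 fold change of the same 37 genes, without over with glucose, with bars of 1 SE; red marks the 12 genes that rose, blue the 2 that fell and grey those that did not pass. COL4A3 lies at the high end with 2.22, COL21A1 and COL1A1 at the low end with −2.22 and −1.37.

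Collagen IV, the network collagen of basement membranes, is assembled from 6 chains whose genes lie in head-to-head pairs, each pair transcribed in opposite directions from starts close together. The sequences below are shown because the members of a pair share the stretch between their starts, so that their counts can be set side by side against a common control region. They are from the RefSeq promoter windows of build GRCh38.p14, which were found by Entrez number for 55 of the 72 genes. The reads were aligned to another build, hg19. Each line gives bases upstream of a start, 5′ to 3′ on the named strand, with the pentamers ACGTG and GCGTG on either strand, the core of the element bound by hypoxia-inducible factors, in capitals. Between the starts of COL4A3 and COL4A4 lie 418 bases, of which the 250 nearest each gene are given, and between those of COL4A1 and COL4A2 lie 126.
COL4A3 (chr2:227164374-227164623, plus strand): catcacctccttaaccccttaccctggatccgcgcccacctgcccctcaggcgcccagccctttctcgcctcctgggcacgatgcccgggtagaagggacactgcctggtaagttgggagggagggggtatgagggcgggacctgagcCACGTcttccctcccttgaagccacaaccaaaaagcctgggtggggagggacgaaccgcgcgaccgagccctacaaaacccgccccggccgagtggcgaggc
COL4A4 (chr2:227164206-227164455, minus strand): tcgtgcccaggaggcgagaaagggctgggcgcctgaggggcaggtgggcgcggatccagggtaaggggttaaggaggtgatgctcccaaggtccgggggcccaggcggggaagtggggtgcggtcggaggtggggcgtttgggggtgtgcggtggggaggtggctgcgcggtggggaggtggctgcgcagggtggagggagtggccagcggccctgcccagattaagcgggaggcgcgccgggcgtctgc
COL4A1-COL4A2 (chr13:110307158-110307283, plus strand): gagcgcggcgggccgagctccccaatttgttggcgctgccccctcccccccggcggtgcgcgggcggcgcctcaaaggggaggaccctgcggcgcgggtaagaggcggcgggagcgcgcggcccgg
The COL4A3 side holds 1 such core, and the COL4A4 side and the shorter COL4A1-COL4A2 stretch of 126 bases hold none. Over equal windows of 300 bases (250 before and 50 after a start), COL4A3 and COL4A2 each hold 1 core, and COL4A4 and COL4A1 hold 0.

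COL4A3 (Entrez 1285) had 6.64, 6.43 and 7.88 CPM without glucose, against 2.26, 0.865 and 1.48 CPM with glucose. All libraries without glucose were higher, and the gene rose by 2.22 ± 0.38 on the log2 scale (SE; edgeR adjusted p = 0.00174). Its neighbour COL4A4 (Entrez 1286), which encodes a chain of the same trimer, had 10.7, 7.35 and 12.0 CPM without glucose and 9.75, 8.84 and 5.91 CPM with glucose. Those groups overlapped, and the log2 fold change of 0.31 ± 0.29 did not pass (edgeR adjusted p = 0.469). Within each library the log2 ratio of COL4A3 to COL4A4 counts was −0.69, −0.19 and −0.61 without glucose and −2.08, −3.28 and −1.98 with glucose, so the ratio was higher in every library without glucose. An RNA gene on the other strand, AC097662.1, overlaps the last 1000 bases of COL4A3 in the GENCODE 29 annotation and was not analysed here; as the strand setting of the counting is not given, its share of the COL4A3 counts is unknown. The same holds for the other-strand genes at the ends of COL16A1 (AC114488.2), P4HA2 (P4HA2-AS1) and PLOD2 (AC107021.1).

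COL4A1 (Entrez 1282) and COL4A2 (Entrez 1284), the common pair, did not pass. COL4A1 had 55.9, 28.3 and 32.9 CPM without glucose and 20.5, 19.9 and 30.0 CPM with glucose; replicate 1 without glucose was the high library, and the groups overlapped. Its log2 fold change was 0.72 ± 0.28 (edgeR adjusted p = 0.0773), and it passed when replicate 2 of the glucose-free cells, a low library, was left out (0.89, edgeR adjusted p = 0.0478), whereas leaving out replicate 1, the high library, gave 0.38 (adjusted p = 0.323). COL4A2 had 41.0, 55.6 and 40.4 CPM without glucose and 39.7, 36.3 and 37.6 CPM with glucose, a log2 fold change of 0.27 ± 0.20 with groups that did not overlap. The X-linked COL4A5 and COL4A6 overlapped widely between the groups, with 7.49, 3.60 and 3.54 CPM without glucose and 3.11, 3.17 and 5.84 CPM with glucose for COL4A5. Their log2 fold changes were 0.23 ± 0.40 and −0.16 ± 0.46.

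Among the fibril-forming collagens, COL5A1 and COL1A1 moved in opposite directions. COL5A1 (Entrez 1289), the chain present in most collagen V trimers, had 84.0, 79.4 and 69.3 CPM without glucose, against 32.4, 26.8 and 43.2 CPM with glucose. It rose by 1.18 ± 0.22 on the log2 scale (edgeR adjusted p = 0.00295). COL5A2 (Entrez 1290), its usual partner chain, had 142, 165 and 152 CPM without glucose and 188, 122 and 133 CPM with glucose; the groups overlapped, with a log2 fold change of 0.05 ± 0.21 (edgeR adjusted p = 0.882). COL1A1 (Entrez 1277), the main chain of collagen I, had 5.03, 4.21 and 5.38 CPM without glucose, against 10.7, 14.1 and 12.8 CPM with glucose, and fell by 1.37 ± 0.25 on the log2 scale (edgeR adjusted p = 0.00263). COL1A2, the other chain of collagen I, had no count in any library. Relative to unscaled gene counts, 3 counts would have been 0.210 to 0.448 CPM. COL27A1, a fibrillar collagen best known from cartilage, had 67.7, 63.5 and 53.3 CPM without glucose and 38.7, 35.1 and 48.4 CPM with glucose, groups that did not overlap, but its log2 fold change of 0.59 ± 0.21 did not pass (edgeR adjusted p = 0.0584).

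Collagens that bind to fibrils or anchor them changed in both directions. COL12A1 (Entrez 1303), which lies on the surface of collagen fibrils, had 16.2, 16.1 and 14.7 CPM without glucose and 5.94, 6.15 and 8.37 CPM with glucose, and rose by 1.19 ± 0.24 on the log2 scale (edgeR adjusted p = 0.00440). COL21A1 (Entrez 81578), of the same fibril-associated class, had 1.33, 2.37 and 1.62 CPM without glucose, against 7.63, 7.49 and 9.92 CPM with glucose. It fell by 2.22 ± 0.34 on the log2 scale (edgeR adjusted p = 8.01e-04), and each library without glucose lay below every library with it. Of the 8 fibroblast markers only THY1 was tested, and it fell, with 2.48 ± 0.741 CPM without glucose and 13.1 ± 5.23 CPM with glucose (SD, n = 3 each). TCF21 was higher in each library without glucose (1.42, 0.689 and 1.03 CPM) than in any with glucose (0.424, 0.576 and 0.492 CPM), LUM overlapped (0.664, 0.306 and 0.516 CPM without glucose, 2.26, 0.576 and 1.06 CPM with glucose), PDGFRA, PDGFRB and FAP stood at 0 in at least 3 libraries each, and DCN and POSTN at 0 in all. The part of fibroblast-like transcripts in these 2 genes was not tested. COL7A1 (Entrez 1294), which makes the anchoring fibrils that tie epithelial basement membranes to the tissue beneath, had 89.2, 90.4 and 65.3 CPM without glucose and 33.1, 28.1 and 46.9 CPM with glucose. It rose by 1.18 ± 0.24 (edgeR adjusted p = 0.00460). COL16A1, a further fibril-associated chain, had 2.47, 2.37 and 4.05 CPM without glucose and 0.989, 1.15 and 1.27 CPM with glucose; its log2 fold change of 1.36 ± 0.46 passed narrowly (edgeR adjusted p = 0.0499), and the call was lost on leaving out any 1 library (adjusted p from 0.0677 to 0.215), with DESeq2 size factors (0.0528), library totals (0.0617), no filter on low counts (0.0551) and a replicate block (0.102).

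COL6A2 (Entrez 1292), a chain of the beaded-filament collagen VI, had 6.92, 7.42 and 7.22 CPM without glucose and 4.10, 2.02 and 1.34 CPM with glucose. It rose by 1.60 ± 0.39 on the log2 scale (edgeR adjusted p = 0.0124), a call lost without replicate 2 with glucose (0.0513) or replicate 3 with glucose (0.0524). COL6A1, its neighbour on chromosome 21 and partner in the same trimer, had 13.1, 14.0 and 9.36 CPM without glucose and 7.49, 9.51 and 7.46 CPM with glucose, and its log2 fold change of 0.57 ± 0.25 did not pass (edgeR adjusted p = 0.125). COL6A3, the third usual chain, was seen with 0 counts over the libraries without glucose and 8 with glucose. COL18A1, a basement membrane collagen whose end fragment is endostatin, had 76.1, 91.4 and 77.5 CPM without glucose and 72.1, 75.02 and 111 CPM with glucose, a log2 fold change of −0.08 ± 0.22. SLC19A1, on the other strand, overlaps the last 1000 bases of COL18A1. COL26A1 was near the detection limit, with 0.854, 1.15 and 0 CPM without glucose and 0.989, 1.15 and 1.41 CPM with glucose.

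Of the 7 laminin chains tested, 3 rose (42.9%, beside 11.6% of all genes tested) and 0 fell (beside 10.7%), and the call of 1 of the 3, LAMA5, was lost under 8 of the 12 alternatives. LAMA3, an alpha chain of epithelial laminin, had 12.6, 10.9 and 9.13 CPM without glucose and 9.75, 6.15 and 10.8 CPM with glucose (log2 fold change 0.29 ± 0.27). LAMB3, a beta chain found with it, had 6.26, 6.20 and 3.46 CPM without glucose and 3.96, 6.63 and 2.39 CPM with glucose (0.30 ± 0.40). The groups overlapped for both genes, and neither passed (edgeR adjusted p = 0.481 for LAMA3 and 0.626 for LAMB3).

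Of the chains of the widely expressed laminins, LAMB2 and LAMA5 passed. LAMB2 (Entrez 3913), a beta chain, had 41.6, 36.2 and 33.7 CPM without glucose and 18.8, 15.9 and 15.1 CPM with glucose, and rose by 1.17 ± 0.20 on the log2 scale (edgeR adjusted p = 0.00175). LAMA5 (Entrez 3911), the alpha chain of mature epithelial basement membranes, had 65.0, 78.6 and 74.1 CPM without glucose and 57.7, 43.3 and 40.5 CPM with glucose. Its log2 fold change of 0.62 ± 0.21 passed narrowly (edgeR adjusted p = 0.0494), and the call was lost on leaving out any glucose-free library, or replicate 2 or 3 with glucose (adjusted p from 0.0608 to 0.175), and under scaling by library totals (0.0861) or DESeq2 size factors (0.0553) or with a replicate block (0.107). ADRM1, which overlaps the end of LAMA5 on the other strand, was lower without glucose (log2 fold change −0.65), opposite in sign to LAMA5. LAMC1, the common gamma chain, had 193, 164 and 231 CPM without glucose and 94.7, 128 and 149.9 CPM with glucose; the groups did not overlap, but 0.65 ± 0.23 did not pass (edgeR adjusted p = 0.0564).

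LAMB1 (Entrez 3912), the common beta chain, varied widely within both groups. It had 668, 260.1 and 541 CPM without glucose and 149.7, 409 and 382 CPM with glucose. The lowest library was replicate 2 without glucose and replicate 1 with glucose, the 2 libraries highest on the second principal component within their groups, and the highest library was 2.57 times the lowest without glucose and 2.73 times with glucose. The log2 fold change was 0.64 ± 0.38 (edgeR adjusted p = 0.244). DLD, a mitochondrial dehydrogenase gene whose end meets that of LAMB1 on the other strand, rose with a log2 fold change of 0.64 (edgeR adjusted p = 0.0348).

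All 3 prolyl 4-hydroxylase catalytic subunits had positive log2 fold changes, and 2 passed. P4HA2 (Entrez 8974) had 65.0, 45.5 and 54.7 CPM without glucose, against 25.4, 25.7 and 24.0 CPM with glucose, and rose by 1.14 ± 0.20 on the log2 scale (edgeR adjusted p = 0.00219). P4HA3 (Entrez 283208) had 14.9, 17.8 and 14.5 CPM without glucose and 8.76, 7.11 and 5.28 CPM with glucose, and rose by 1.17 ± 0.26 (edgeR adjusted p = 0.00665). PPME1, which overlaps the end of P4HA3 on the other strand, fell with a log2 fold change of −1.52. P4HA1 (Entrez 5033), the form most cells rely on, had 141, 82.3 and 94.7 CPM without glucose and 55.4, 68.4 and 83.2 CPM with glucose; the lowest library without glucose lay just below the highest with it, and 0.62 ± 0.25 did not pass (edgeR adjusted p = 0.0905).

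Of the lysyl hydroxylases only PLOD2 passed, and the other 2 had negative log2 fold changes. PLOD2 (Entrez 5352), which modifies lysines in the collagen ends and so sets the type of crosslink, had 384, 242 and 403 CPM without glucose, against 117, 177 and 127 CPM with glucose. It rose 2.45-fold, by 1.29 ± 0.25 on the log2 scale (edgeR adjusted p = 0.00345), and its groups did not overlap. PLOD1 (Entrez 5351), which acts on the helical part, had 34.2, 38.7 and 31.2 CPM without glucose and 50.03, 50.8 and 40.7 CPM with glucose. All its libraries without glucose were lower, but −0.44 ± 0.20 did not pass (edgeR adjusted p = 0.125). PLOD3, which also adds sugars to hydroxylysine, had 25.3, 19.7 and 28.2 CPM without glucose and 29.4, 43.7 and 26.2 CPM with glucose, overlapping groups and a log2 fold change of −0.44 ± 0.24. The log2 ratio of PLOD2 to PLOD1 counts was 3.49, 2.65 and 3.69 without glucose and 1.22, 1.80 and 1.64 with glucose.

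P4HA1, P4HA2 and PLOD2 are described targets of hypoxia-inducible factors. The 250 bases before their RefSeq starts are given, with those of PLOD1 for contrast, to show where the core pentamers lie (capitals, as above, build GRCh38.p14).
P4HA1 (chr10:73096867-73097116, minus strand): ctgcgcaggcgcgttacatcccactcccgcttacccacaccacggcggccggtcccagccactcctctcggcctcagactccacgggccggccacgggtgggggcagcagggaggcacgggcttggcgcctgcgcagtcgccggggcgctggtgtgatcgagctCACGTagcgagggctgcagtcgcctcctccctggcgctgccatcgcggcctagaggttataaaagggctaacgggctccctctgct
P4HA2 (chr5:132227092-132227341, minus strand): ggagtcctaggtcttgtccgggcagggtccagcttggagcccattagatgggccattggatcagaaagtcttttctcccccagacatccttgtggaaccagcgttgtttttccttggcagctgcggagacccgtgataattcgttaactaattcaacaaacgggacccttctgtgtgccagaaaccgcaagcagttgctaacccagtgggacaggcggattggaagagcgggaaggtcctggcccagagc
PLOD1 (chr1:11934467-11934716, plus strand): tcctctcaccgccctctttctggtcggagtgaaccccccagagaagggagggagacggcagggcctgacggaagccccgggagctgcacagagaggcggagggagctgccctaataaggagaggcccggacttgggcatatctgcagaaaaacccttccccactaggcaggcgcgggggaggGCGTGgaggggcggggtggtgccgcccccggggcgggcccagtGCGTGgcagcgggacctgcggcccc
PLOD2 (chr3:146161185-146161434, minus strand): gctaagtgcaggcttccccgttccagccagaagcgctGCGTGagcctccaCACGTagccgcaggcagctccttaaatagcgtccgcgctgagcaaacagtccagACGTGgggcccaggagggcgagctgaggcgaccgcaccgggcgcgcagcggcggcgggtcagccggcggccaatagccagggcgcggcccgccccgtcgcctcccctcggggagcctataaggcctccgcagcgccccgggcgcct
PLOD2, which rose, holds 3 cores and PLOD1, which did not pass, holds 2; P4HA1 holds 1, and P4HA2, which rose, holds none in these letters. Over windows of 300 bases (250 before and 50 after a start), 6 of 11 windows of the genes that rose held a core (54.5%), 9 of 26 of those that did not pass (34.6%), and 48.4% of the 35116 windows of all genes. The 11 windows belonged to 10 of the 13 genes that rose, and the 26 windows to 21 genes. COL5A1 entered with overlapping windows, each with 1 core, so windows are not independent units. The endoplasmic reticulum stress element of the unfolded protein response (CCAAT and CCACG with 9 bases between, either strand) was found in 0 of 73 matrix gene windows and in 0.08% of all windows.

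Of the lysyl oxidases, LOXL2 and LOXL4 were tested and LOXL2 passed. LOXL2 (Entrez 4017), an oxidase that also acts on collagen IV, had 111, 123 and 103 CPM without glucose and 46.8, 46.4 and 40.2 CPM with glucose. It rose 2.53-fold, by 1.34 ± 0.20 on the log2 scale (edgeR adjusted p = 6.56e-04), and the libraries of each group lay close together. LOXL4 had 0.569, 1.61 and 1.18 CPM without glucose and 1.27, 0.0961 and 0.492 CPM with glucose, and did not pass (log2 fold change 0.98 ± 0.77). LOX, the founding member, had 24 counts over the libraries without glucose and 10 with glucose and was not tested; relative to scaled library totals the ratio was 2.05 (exact 95% interval 0.943 to 4.79, counting error only). LOXL1 had 8 counts without glucose and 12 with glucose, and LOXL3 had 1 without glucose and 0 with glucose.

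None of the 5 further genes passed, and their groups overlapped in every case. FN1, fibronectin, had 38.6, 74.2 and 41.6 CPM without glucose and 59.5, 47.7 and 39.9 CPM with glucose (log2 fold change 0.07 ± 0.27). SERPINH1 had 190.3, 311 and 275 CPM without glucose and 261, 189 and 180.3 CPM with glucose (0.30 ± 0.24, edgeR adjusted p = 0.381). Both, and HSPG2, were highest in replicate 2 without glucose and in replicate 1 with glucose within their groups. Of the genes that passed and are named here, COL6A2, LAMA5, P4HA3 and LOXL2 were also highest in both, and COL1A1, COL16A1 and PLOD2 lowest. HSPG2 had 24.0, 38.3 and 30.8 CPM without glucose and 42.4, 31.2 and 24.4 CPM with glucose (−0.07 ± 0.25). NID1 and the collagen-binding protein SPARC had log2 fold changes of −0.22 ± 0.28 and 0.06 ± 0.56.

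Chains of the same trimer, related enzymes, and the laminin beta chains LAMB2 and LAMB1 were compared directly in pairs. The measure was the log2 ratio of their counts within each library. To each count 0.5 was added, and library scaling cancels in the ratio. The 8 pairs were chosen after the values were seen. In 4 of them the ratio did not overlap between the groups. The difference in mean log2 ratio, without minus with glucose, was 1.95 for COL4A3 over COL4A4, 1.72 for PLOD2 over PLOD1, 1.13 for COL5A1 over COL5A2 and 0.52 for P4HA2 over P4HA1, whose nearest libraries of the 2 groups stood at −1.12 each. Each of these 4 had an exact two-sided permutation p of 0.1, the smallest that 3 against 3 libraries allow, and 0.2 after Benjamini-Hochberg adjustment over the 8 pairs, so none can pass. The ratios of COL6A2 to COL6A1 (difference 1.11, replicate 1 with glucose lying among the libraries without glucose), COL4A1 to COL4A2 (0.44), COL4A5 to COL4A6 (0.39) and LAMB2 to LAMB1 (0.49) overlapped between the groups.

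**Figure D4:**
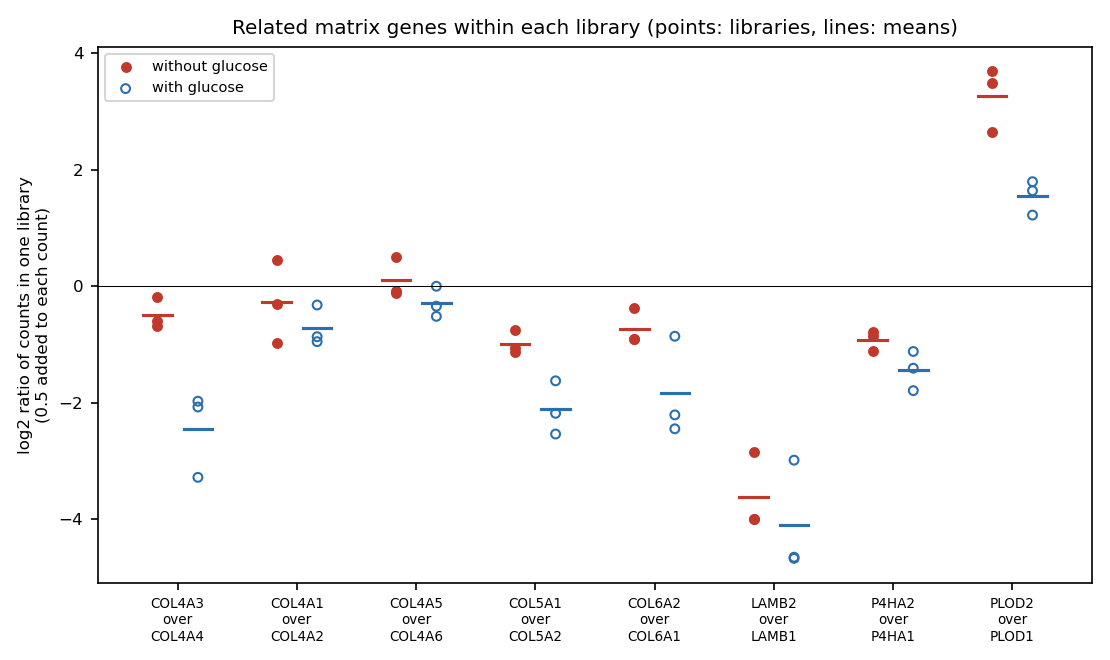
Log2 ratio of the counts of related matrix genes within each library, with 0.5 added to each count, for 8 pairs; filled points are libraries without glucose, open points libraries with glucose, and lines are group means. For COL4A3 over COL4A4 the libraries lie between −0.69 and −0.19 without glucose and between −3.28 and −1.98 with glucose, and 4 of the 8 pairs show groups that do not overlap.

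The other 34 of the 72 genes were not tested, for low counts. No count was seen in any library for 9 of them: COL1A2, COL5A3, COL6A5, COL8A1, COL9A1, COL10A1, COL11A1, COL22A1 and COL25A1. A further 15 had 1 to 9 counts over all 6 libraries, among them COL3A1 with 1. In 3 untested genes the groups did not overlap: COL15A1, a basement membrane zone collagen, had 22 counts without glucose and 1 with glucose (ratio 18.8, exact 95% interval 3.03 to 774), LAMC3, a gamma chain, had 29 without glucose and 5 with glucose (4.94, 1.89 to 16.4), and the transmembrane COL13A1 had 40 without glucose and 22 with glucose (1.55, 0.899 to 2.74). The intervals cover counting error only. The share of all untested genes whose groups did not overlap was not computed, so the count of 3 is not read as a result. With no filter on low counts, COL15A1 and LAMC3 had edgeR adjusted p of 0.0700 and 0.174, and no untested gene passed. COL17A1, the transmembrane collagen of hemidesmosomes, had 30 counts without glucose and 12 with glucose in overlapping groups, and LAMA2, an alpha chain, had 26 without glucose and 30 with glucose.

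Among partners of collagen folding, P4HB, PPIB and FKBP14 rose. Of 13 tested genes for folding and modification, 3 rose (23.1%) and 1 fell (7.7%), beside 11.6% and 10.7% of all genes tested, with a median log2 fold change of 0.30. P4HB, which encodes the beta subunit shared by the prolyl 4-hydroxylases and is also a disulfide isomerase, averaged 451 ± 36.0 CPM without glucose and 205 ± 39.5 CPM with glucose (SD, n = 3 each; log2 fold change 1.13 ± 0.21). The proline isomerases PPIB and FKBP14, which speed helix folding, rose by 0.999 ± 0.22 and 0.85 ± 0.20. COLGALT1, which adds galactose to hydroxylysine, fell with −0.78 ± 0.25; 0 genes of this list fell when a replicate block was fitted, or in 5 of the 6 fits that left out a library. Of 16 genes of export and processing 6 rose (37.5%, beside 11.6% of all genes tested) and 0 fell (beside 10.7%), with a median of 0.65. When replicate 3 of the glucose-free cells was left out, 3 of the list rose, and 7.26% of all genes were higher in that fit. MIA2 and MIA3, which fit bulky procollagen into transport vesicles, rose by 1.90 ± 0.29 and 1.77 ± 0.37, and the vesicle coat gene SEC24D by 1.47 ± 0.31. The others were SEC31A, a further coat gene, the transcription factor gene CREB3L2 and BMP1, which cuts the end of procollagen.

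Receptors for collagen and laminin showed 7 higher (43.8%) and 1 lower (6.2%) among 16 tested, beside 11.6% and 10.7% of all genes tested, with a median of 0.71. With a replicate block 3 were higher and 0 lower. The number higher was 3 on leaving out any 1 glucose-free library. It was 2 on leaving out replicate 2 with glucose and 4 on leaving out replicate 3 with glucose. Over all genes, 7.1% to 9.66% were higher in these fits. ITGA3, a laminin-binding integrin chain, averaged 274 ± 30.8 CPM without glucose and 95.7 ± 17.8 CPM with glucose (log2 fold change 1.52 ± 0.21). ITGA2, a collagen-binding chain, rose by 1.38 ± 0.20. DAG1, dystroglycan, which binds laminin, fell with −0.78, a call lost on leaving out replicate 3 of either group. ITGB1, the beta chain that partners both, rose by 0.75 ± 0.21, but the call was lost on leaving out glucose-free replicate 1 (edgeR adjusted p = 0.0503) or 3 (0.0883) or replicate 2 with glucose (0.0658).

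Of 17 tested genes of matrix turnover 5 rose (29.4%) and 2 fell (11.8%), beside 11.6% and 10.7% of all genes tested, so the share that fell was near that of all genes; the median was 0.52. CTSL, a lysosomal protease, and TIMP4, a metalloproteinase inhibitor, rose by 1.25 ± 0.20 and 1.79 ± 0.32, and the membrane-bound metalloproteinase gene MMP24 fell with −1.29 ± 0.21. MMP2 and TIMP2 also rose, and MMP7, a secreted metalloproteinase, fell with −0.74. MMP2 was near the detection limit, with 1.33, 2.30 and 1.84 CPM without glucose and 0, 0 and 0.633 CPM with glucose. It could pass the filter through the glucose-free group alone. With a filter on the mean over all 6 libraries (at least 20 counts), 4 genes of this list rose, as did 12.2% of all genes tested. Leaving out glucose-free replicate 2 or 3, or replicate 2 with glucose, gave 3 that rose, and 7.1% to 9.66% of all genes rose in these fits. Leaving out glucose-free replicate 1 or 3, or replicate 2 or 3 with glucose, gave 1 that fell, as did a replicate block. Over all genes, 781 to 966 fell in the fits that gave 1, beside 1276 in the main fit. Of 23 other matrix glycoproteins and proteoglycans 6 rose (26.1%) and 2 fell (8.7%), beside 11.6% and 10.7% of all genes tested; the median was 0.15. The proteoglycan SPOCK1, the netrin NTN4, which binds laminin, and PXDN, which crosslinks collagen IV, rose by 1.67 ± 0.23, 1.36 ± 0.21 and 1.20 ± 0.24. LTBP1, which holds latent TGF-beta in the matrix, fell with −1.12, and the proteoglycan VCAN with −0.92. Leaving out replicate 2 of either group, or fitting a replicate block, gave 3 that rose. Of all genes, 7.1% to 9.66% rose in these fits.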

How the data were processed

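RNA of A549 cells was counted from transcript 3' ends. Per the labels' protocols, cDNA was primed with barcoded oligo-dT, pooled according to quantitative PCR of Actb, and amplified for 12 PCR cycles; no molecular identifiers are mentioned, so PCR copies count as reads. The authors deposited raw counts of reads per gene, made with STAR and HTSeq on hg19, per the submitters' processing notes; the sources used here give no tool versions, annotation or strand setting. HTSeq summary lines were left out: reads outside genes were 32.8% to 36.5% of each library, multiply aligned reads, which include those of near-identical genes, 18.4% to 22.2%, and ambiguous reads 0.369% to 0.418%. Entrez numbers were matched to symbols through a RefSeq table (GRCh38.p14, names only; 19178 of 19240 matched).

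Groups were compared with the edgeR 4.0.16 quasi-likelihood F test (two-sided) with TMM scaling, filterByExpr (minimum count 10), and no covariate; p-values of all 11886 genes that passed the filter were adjusted by Benjamini-Hochberg, with a threshold of 0.05. SEs were taken from F (absolute log2 fold change over its square root) and are approximate. CPM was computed from the deposited counts. Intervals are exact (Clopper-Pearson) at 95% and cover counting error only; a count of 0 allows up to 3 counts. Libraries of a group differed beyond sampling noise (chi-square over degrees of freedom 22.1 to 57.3), and none were merged. Overlapping genes were read from GENCODE 29. The genes and lists were chosen with earlier results of these data known. Named genes are the members, and in each pathway list the 3 genes with the smallest p; DESeq2 1.42.0 and the other alternatives are given in the closing section. COLGALT1, SEC31A, CREB3L2, BMP1, DAG1, MMP2, TIMP2, MMP7, LTBP1, VCAN, DLD, ADRM1, PPME1, SLC19A1 and AC097662.1 were named after their values were seen. Some genes are not reported here by name; counts and sums include them, while the figures of single genes and the pairs leave them out.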

Additional observations from a re-analysis of the deposited data

How the results depend on the processing

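Across the 12 alternatives (other scalings, other filters, a replicate block, DESeq2, and leaving out each library), 12 of the 15 matrix genes called kept their call in all; COL16A1, LAMA5 and COL6A2 did not. COL27A1, COL4A1 and LAMC1 passed under at least 1 alternative. Matrix genes higher numbered 10 to 15 and lower 2 throughout, with 36 to 63 matrix genes tested. Of all genes tested, 7.1% to 13% were higher under these alternatives. The cause of each change below was not tested.

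Correlations of deviations were −0.298, −0.14 and 0.042 for same-numbered libraries and ran from −0.231 to 0.286 for the others. With 3 libraries per group they cannot show whether the replicate numbers mark shared cultures. With the replicate block, 11 matrix genes were higher and 2 lower, 1895 genes changed, receptors numbered 3 higher and 0 lower, folding partners 0 lower, turnover genes 1 lower and other matrix genes 3 higher. Scaling by library totals, and likewise DESeq2, gave 2 receptors and 2 folding partners lower, and no filter on low counts gave 2 folding partners lower and a median log2 fold change of matrix genes of 0.304. With library totals COL5A2 turned to −0.01 and SPARC to −0.012.

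Leaving out 1 library gave 1651 (glucose-free replicate 3) to 2524 genes changed, and 1744 on omitting replicate 2 with glucose. The matrix median ran from 0.366 to 0.572, folding partners lower from 0 to 2, export genes higher from 3 to 5, receptors higher from 2 to 5 and lower from 0 to 1, turnover genes higher from 3 to 5 and lower from 1 to 2, and other matrix genes higher from 3 to 5. Log2 fold changes that turned sign, none of them called, ran from −0.071 to 0.262 for COL5A2, −0.204 to 0.62 for COL4A5, −0.733 to 0.393 for COL4A6, −0.192 to 0.149 for COL18A1, −0.018 to 0.769 for LAMB3, −0.299 to 0.242 for FN1, −0.257 to 0.16 for HSPG2, −0.359 to 0.01 for NID1 and −0.345 to 0.813 for SPARC. Low counts left 34 matrix genes untested.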
